A study of Mus musculus with 2 samples.

Results

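Expression of the 6 genes that break polyamines down or move them across membranes was followed in single cells of mouse MC38 tumours, with and without difluoromethylornithine (DFMO). The genes were Sat1, Sat2, Smox, Paox, Atp13a2 and Atp13a3, chosen by function and by name. They are 6 of the 17775 genes in the count matrix, and all 6 were measured. MC38 is a mouse colon carcinoma line, of which 200000 cells were implanted in the back of C57BL/6 mice. Gavage with DFMO, an inhibitor of ornithine decarboxylase, or with water began on day 7 and lasted 14 days. The series' text gives this as daily dosing and the sample protocol as more frequent dosing, and the dose and the age and sex of the mice were not used here. Tumours were digested, immune cells were sought by a Ficoll step, and cells of 4 mice per group were pooled into 1 single-cell 5′ RNA library, so the DFMO group and the water group are 1 library each. No replicate error can therefore be given for any difference, and no test was made: every interval below is a 95% interval of counting error only. The design allows the question of whether polyamine breakdown and transport genes differ between the libraries once the different cells in them are taken into account.

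Polyamines (putrescine, spermidine and spermine) are small positively charged molecules that bind nucleic acids and are needed for growth. Ornithine decarboxylase, the target of DFMO, makes putrescine, and cells lower an excess by acetylation, oxidation and export. SAT1 places acetyl groups on spermine and spermidine, which marks them for export or for oxidation by PAOX, an enzyme of peroxisomes. SMOX oxidises spermine to spermidine directly and releases hydrogen peroxide. ATP13A2 is a P-type ATPase of late endosomes and lysosomes that carries polyamines into the cytosol, and ATP13A3 is a related ATPase of the endosomal pathway linked to polyamine uptake. SAT2 is a relative of SAT1 that acts poorly on polyamines and better on thialysine. In macrophages, arginase produces the ornithine from which polyamines are made.

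The upstream sequences are shown first because Sat1 and Smox were highest in the same cell class, while Sat2 and Paox were highest in different classes. They come from the 250 bases before the RefSeq start of each gene on GRCm38.p6 (the build named mm10 in the study). Printed is the longest part that GENCODE M21 does not annotate as untranslated, read 5′ to 3′ on the strand of the gene. Its length is 250 bases for Sat1, 110 for Smox, 222 for Sat2 and 250 for Paox. The Smox and Paox stretches lie inside the spans that GENCODE M21 gives these genes. Capitals mark matches to the motifs searched on both strands. The stretches lie at chrX:155216450-155216699 (minus strand, Sat1), chr2:131491654-131491763 (plus, Smox), chr11:69621802-69622023 (plus, Sat2) and chr7:140125407-140125656 (plus, Paox, the first of its 2 starts).
Sat1: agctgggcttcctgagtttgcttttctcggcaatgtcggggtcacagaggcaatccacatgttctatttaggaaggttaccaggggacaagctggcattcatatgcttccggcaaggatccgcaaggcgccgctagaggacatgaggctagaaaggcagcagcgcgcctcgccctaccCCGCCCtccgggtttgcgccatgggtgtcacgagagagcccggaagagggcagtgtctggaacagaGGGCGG
Smox: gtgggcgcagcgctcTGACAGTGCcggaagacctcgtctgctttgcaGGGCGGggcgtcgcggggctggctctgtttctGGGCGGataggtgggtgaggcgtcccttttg
Sat2: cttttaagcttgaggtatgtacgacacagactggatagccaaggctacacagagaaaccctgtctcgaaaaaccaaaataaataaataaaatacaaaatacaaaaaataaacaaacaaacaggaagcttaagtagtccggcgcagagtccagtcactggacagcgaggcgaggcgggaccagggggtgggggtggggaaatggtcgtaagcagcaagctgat
Paox: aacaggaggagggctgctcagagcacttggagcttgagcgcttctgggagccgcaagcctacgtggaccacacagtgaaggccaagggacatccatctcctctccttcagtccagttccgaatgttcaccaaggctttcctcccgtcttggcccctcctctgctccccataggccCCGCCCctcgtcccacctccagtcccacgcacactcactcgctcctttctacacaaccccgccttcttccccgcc

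The printed Sat1 stretch holds 2 GC boxes (GGGCGG), the Smox stretch 2, the Paox stretch 1 and the Sat2 stretch 0. GC boxes are bound by SP1-type factors and occur in 32.7% of the 32851 RefSeq promoter windows of 250 bases. In the full window of Smox, which includes annotated untranslated bases, there were 6. The capitals TGACAGTGC in Smox match TGACNNNGC, the core of the antioxidant response element, which 10.2% of the windows hold; the other printed stretches do not hold it. The Sat2 window holds a CCAAT box (33.8% of windows) past the end of the printed stretch. CACGTG (6.02% of windows), GAGGAAGT, a site of the myeloid factor PU.1 (2.44%), and TATAAA (12.4%) were in none of the windows of Sat1, Sat2, Smox, Paox and Atp13a2. GC content was 59.6% in Sat1, 67.3% in Smox, 45.9% in Sat2 and 61.6% in Paox. Atp13a3 is named without a sequence. These matches describe the letters only.

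The 6 genes lie on separate chromosomes in GENCODE M21. Sat1 (ENSMUSG00000025283) is at chrX:155213132-155216449 on the minus strand and Sat2 (ENSMUSG00000069835) at chr11:69622024-69623870 on the plus strand. Smox (ENSMUSG00000027333) is at chr2:131491496-131525922 and Paox (ENSMUSG00000025464) at chr7:140115799-140137224, both on the plus strand. Atp13a2 (ENSMUSG00000036622) is at chr4:140986873-141007330 on the plus strand and Atp13a3 (ENSMUSG00000022533) at chr16:30312423-30405975 on the minus strand. Paox overlaps Echs1 on the opposite strand by 678 bases, and 30.3% of the 31-base words of its transcripts also occur in transcripts of other genes, mainly Gm19680, which the matrix does not list. Paox counts are therefore uncertain by an unknown amount. For Sat1 the share was 6.92%, and for the others at most 1.53%.

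The DFMO library held 4472 deposited cells and the water library 6248. After filtering, 4421 and 6150 cells were kept, with medians of 2208 and 6334.5 unique molecular identifiers (UMIs, counted molecules) per cell. The libraries shared 37 cell barcodes, 0.827% of those of DFMO. Cells fell into 19 clusters, which were joined into 10 classes by marker genes, with 4 clusters left by number. B cell-like cells made up 33.5% of DFMO and 0.927% of water cells, CD4 T cell-like cells 14.3% and 0.618%, and monocyte and macrophage-like cells 4.23% and 19.9%. Fibroblast-like cells were 3.53% and 16.7%, and 3 clusters called Ptprc-low were 12% and 30.5%, although the labels speak of immune cells. Ptprc-low clusters matched no marker list and had under 20 CPM (counts of a gene scaled to 1000000 UMIs of the set) of Ptprc, which encodes the leukocyte antigen CD45. The fibroblast-like cluster was also under that level, at 2.28 CPM. Tumour epithelium markers summed to 1.4 CPM (DFMO) and 26.0 CPM (water) in Ptprc-low cells, so epithelial markers did not define that class. Y-linked genes summed to 0.85 and 0.99 CPM in fibroblast-like and 2.26 and 0.75 CPM in Ptprc-low cells, against 193 and 102 CPM in named leukocytes. The fibroblast-like class carried 12733 and 13918 CPM of 7 fibroblast markers, against 2782 and 2514 CPM in Ptprc-low cells, and where its cells came from was not tested.

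Sat1, the acetyltransferase gene, was found in every class and was highest in monocyte and macrophage-like cells, at 1668 CPM in the DFMO library (1593–1746) and 1524 CPM in the water library (1492–1557). That class held 28.1% of the Sat1 UMIs of DFMO in 4.23% of its cells, and 40.2% of those of water in 19.9% of its cells. Migratory dendritic cell-like cells came next with 439 CPM (350–544) and 660 CPM (588–739), and the level in the myeloid class lay above theirs beyond the counting intervals in both libraries. Below them, cluster 16 (403 and 467 CPM; led by Mmp3 and Ear2), conventional dendritic cell-like cells (391 and 440 CPM), B cell-like cells (312 and 426 CPM) and regulatory T cell-like cells (321 and 355 CPM) overlapped with at least one neighbour in the order. NK cell-like cells had 212 and 281 CPM, CD8 T cell-like cells 185 and 239, fibroblast-like cells 184 and 257, and Ptprc-low cells 161 and 198. The lowest level in both libraries was in cluster 11, led by Klra6 and Gzmk, at 133 and 164 CPM. Sat1 UMIs were seen in 93.0% of monocyte and macrophage-like cells of DFMO and 90.2% of those of water. With every cell thinned to 1000 UMIs, the shares were 69.1% (61.8–75.7) and 65.1% (62.3–67.8), against 14.3% and 16% in Ptprc-low cells.

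Sat2, the relative of Sat1, had few UMIs, 41 in DFMO and 197 in water. It was highest in fibroblast-like cells, at 8.06 CPM in the DFMO library (4.85–12.6) and 7.61 CPM in the water library (6.13–9.33), and that class held 46.3% and 46.7% of its UMIs. Cluster 16 came next, at 5.5 CPM (1.13–16.1) from 3 UMIs in DFMO and 3.36 CPM from 6 UMIs in water. That cluster matched no list: fibroblast markers summed to 3198 and 5712 CPM there and monocyte or macrophage markers to 3612 and 3132 CPM, and the myeloid genes Ear2 and Treml4 are among its leading genes. Ptprc-low cells followed with 1.72 CPM (0.986–2.8) and 2.82 CPM (2.25–3.48), below the fibroblast-like level in both libraries and with intervals that overlap that of cluster 16. In B cell-like, CD4, CD8 and regulatory T cell-like cells and in both dendritic classes, 0 UMIs were counted in either library. In CD8 T cell-like cells the exact intervals reach up to 1.86 CPM in DFMO and 1.55 CPM in water. Monocyte and macrophage-like cells had 1 and 11 UMIs (0.908 and 1.97 CPM), and NK cell-like cells 2 and 2 (1.71 and 1.02 CPM). The intervals of both classes overlapped with that of Ptprc-low cells in both libraries.

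Smox, the spermine oxidase gene, was also highest in monocyte and macrophage-like cells, at 215 CPM in the DFMO library (189–244) and 212 CPM in the water library (200–224). The class held 39.8% of the Smox UMIs of DFMO and 56.7% of those of water. Regulatory T cell-like cells were second, at 71.7 CPM (53.2–94.5) and 87.9 CPM (68.2–111). They stood above CD8 T cell-like cells (16.6 and 19.7 CPM) and NK cell-like cells (28.2 and 30.2 CPM) beyond the counting intervals in both libraries. Fibroblast-like cells had 16.1 and 19.5 CPM and Ptprc-low cells 15.5 and 13.4 CPM, so these levels overlapped with that of CD8 T cell-like cells in DFMO. B cell-like cells had 7 UMIs in DFMO, 2.52 CPM (1.01–5.19), and 0 in the 57 water cells. After thinning to 1000 UMIs, a Smox UMI was seen in 16% (11–22.2) and 15% (13–17.2) of monocyte and macrophage-like cells, against 0.0693% of B cell-like cells of DFMO. The unthinned shares were 47.6% and 39.8% at medians of 5744 and 4298.5 UMIs per cell, and 0.406% in those B cell-like cells at a median of 1762.

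Paox, the oxidase of acetylated polyamines, was found in leukocytes and was hardly seen in fibroblast-like and Ptprc-low cells, where Sat2 had most of its UMIs. Monocyte and macrophage-like cells had 23.6 CPM in the DFMO library (15.4–34.6) and 24.8 CPM in the water library (20.8–29.3). CD8 T cell-like cells had 16.1 CPM (11–22.8) and 15.5 CPM (10.9–21.4), and these intervals overlapped with those of the myeloid class in both libraries. B cell-like cells of DFMO had 7.92 CPM (4.96–12) and CD4 T cell-like cells 14.7 CPM (8.39–23.8). Regulatory T cell-like cells had 10 and 10.3 CPM, and NK cell-like cells 7.68 and 9.74 CPM. In fibroblast-like cells 0 UMIs were counted in DFMO and 11 in water, and in Ptprc-low cells 0 and 7, although these cells were the deepest, with medians from 11726 to 18653.5 UMIs. The exact interval of the 0 count in Ptprc-low cells of DFMO reaches up to 0.398 CPM. Across the class sums of both libraries, Sat2 and Paox had a Pearson correlation of -0.55 on the log2(CPM + 1) scale (22 sums that share 2 libraries, given as a description).

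**Figure D1:**
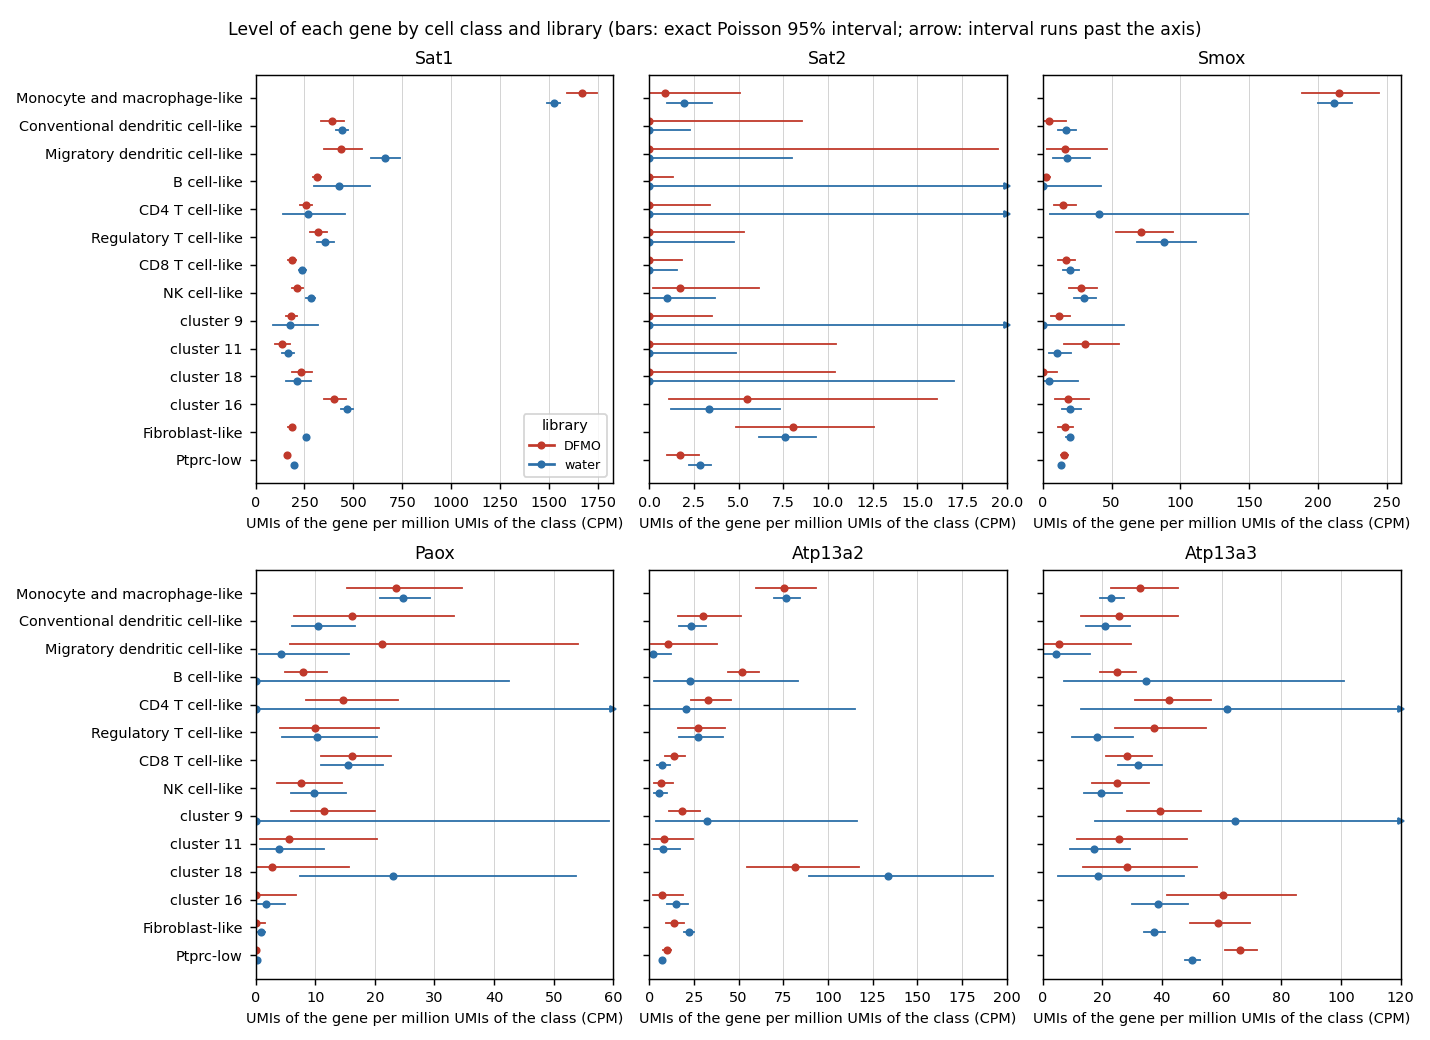
Level of each gene (CPM, horizontal axis, a separate linear scale per gene) in 10 classes and 4 clusters left by number, with DFMO in red and water in blue; points are summed UMIs of 1 library and bars are exact Poisson 95% intervals. Sat1 and Smox stand highest in monocyte and macrophage-like cells, Sat2 in fibroblast-like cells and Paox in leukocytes, and Atp13a3 in fibroblast-like and Ptprc-low cells is higher in DFMO.

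Atp13a2, the lysosomal polyamine exporter gene, was highest in cluster 18, with 81.6 CPM in the DFMO library (54.7–117) and 134 CPM in the water library (89.6–192). Cluster 18 is led by Jchain, Klk1, Siglech, Mef2b and Rgs13, a mix of plasmacytoid dendritic cell and germinal centre B cell genes, and holds 46 and 30 cells. At a finer clustering, whose levels were added after seeing the data, an unnamed cluster led by Klk1 and Siglech had 82.4 CPM (42.6–144) and 120 CPM (90.4–155), from 30 and 105 cells. Only 5 and 24 of these came from cluster 18, while 15 and 42 came from conventional dendritic cell-like and 10 and 39 from monocyte and macrophage-like cells. Sat1 in that mixed cluster was 1676 CPM (1472–1900) and 1449 CPM (1342–1563). Monocyte and macrophage-like cells had 75.3 CPM (59.996–93.4) and 76.6 CPM (69.5–84.3), which overlaps with cluster 18 in DFMO but not in water. B cell-like cells had 52.2 CPM (44.0–61.4) in DFMO and 2 UMIs in water. NK cell-like cells (6.83 and 5.64 CPM) and Ptprc-low cells (9.92 and 7.17 CPM) were at the low end.

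Atp13a3, the gene of the related transporter, had its UMIs mostly outside the leukocytes. Ptprc-low cells held 54.9% of them in DFMO and 64.6% in water, at 66.3 CPM (61.2–71.7) and 50.2 CPM (47.7–52.8). That class was 12% and 30.5% of the cells, with medians of 18653.5 and 16704 UMIs per cell. Shares of UMIs rise with cell number and depth and are not levels. Fibroblast-like cells had 58.9 CPM (49.5–69.6) and 37.5 CPM (34.1–41.1), and cluster 16 had 60.5 and 38.6 CPM. The intervals of these sets did not overlap between the libraries in Ptprc-low and fibroblast-like cells, where DFMO was higher. Monocyte and macrophage-like cells had 32.7 CPM (22.9–45.2) and 23.0 CPM (19.2–27.3), and CD8 T cell-like cells 28.2 and 31.9 CPM. In DFMO, CD4 T cell-like cells had 42.2 CPM (30.9–56.3), cluster 9 had 39.2 CPM (28.1–53.2) and regulatory T cell-like cells had 37.3 CPM (24.3–54.6). These intervals overlapped with that of fibroblast-like cells of DFMO. In water, regulatory T cell-like cells had 18.1 CPM (9.89–30.4), below the fibroblast-like interval. In water, the few cells of cluster 9 (4 UMIs) and of the CD4 T cell-like class (3 UMIs) gave nominally the highest levels, 64.3 and 61.8 CPM, with intervals that reach from under 20 to over 160 CPM.

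Within the monocyte and macrophage-like class, Sat1 and Smox had different orders. The class joins cluster 7 (led by Ly6i, Slfn4 and Cfb), cluster 10 (led by Pf4, Mmp12, Ms4a7 and C1qa) and cluster 12 (led by Serpinb2, Hp and Ace). Sat1 was highest in cluster 12, at 2207 CPM (DFMO) and 1971 CPM (water), then in cluster 10, at 1841 and 1564 CPM, and lowest in cluster 7, at 891 and 1115 CPM. Smox was highest in cluster 10, at 372 CPM (313–440) and 315 CPM (291–341), then in cluster 7, at 201 and 208 CPM, and lowest in cluster 12, at 77.9 CPM (52.6–111) and 87.7 CPM (73.8–103). The clusters were made from the expression of 2000 variable genes, so these levels describe the clusters and are no test of them.

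At the finer clustering, genes that lead cluster 10 were among the leading genes of 2 myeloid clusters, called pieces here. The members parted between these pieces. Whether all of their cells came from cluster 10 was not traced. The piece led by Mmp12, Clec4d and Arg1 (33 DFMO and 171 water cells) had the highest Smox level of all, 689 CPM (575–820) in DFMO and 592 CPM (543–645) in water. Arg1 is the arginase gene that supplies ornithine. Sat1 there was 2692 CPM (2461–2940) and 2133 CPM (2039–2231). The piece led by the complement genes C1qa and C1qc and by Ccl8 (31 and 215 cells) had 49.1 CPM (21.2–96.8) and 86.6 CPM (70.0–106) of Smox and 989 and 1125 CPM of Sat1. Atp13a2 and Paox had the opposite order. Atp13a2 was 172 CPM (114–249) and 121 CPM (101–143) in the complement-led piece and 32.6 CPM (12–70.9) and 60.4 CPM (45.3–78.7) in the Arg1-led piece. Paox was 49.1 CPM (21.2–96.8) and 52.5 CPM (39.8–68.0) in the complement-led piece and 16.3 CPM (3.36–47.6) and 14.5 CPM (7.74–24.8) in the Arg1-led piece, so its intervals were apart in water only. The order of the 2 pieces was the same in both libraries for each of the 4 genes. Smox UMIs were not carried by a single cell: the cell with most held 7.59% of those of the myeloid class in DFMO and 2.37% in water.

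**Figure D2:**
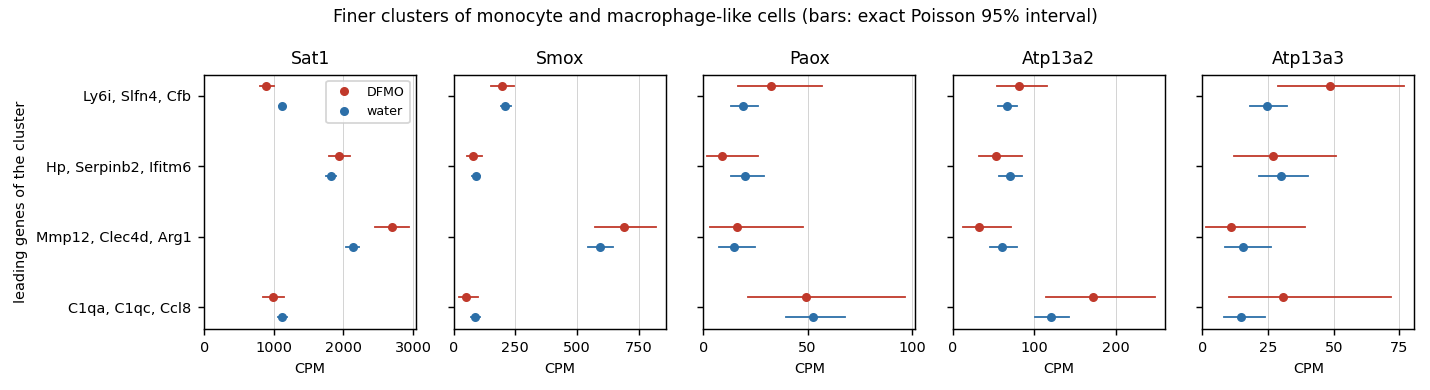
Levels of 5 of the genes (CPM, horizontal axes, linear) in 4 finer clusters of monocyte and macrophage-like cells, named on the vertical axis by their leading genes, with DFMO in red, water in blue and exact Poisson 95% intervals. Smox peaks in the Mmp12, Clec4d and Arg1 cluster, with 689 CPM in DFMO and 592 CPM in water. Atp13a2 and Paox are highest in the C1qa, C1qc and Ccl8 cluster, and Atp13a2 is lower in the Smox peak cluster than there.

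Over all kept cells, Sat1 had 280 CPM in DFMO and 362 CPM in water, a log2 ratio of DFMO over water of -0.37 (-0.41 to -0.33). Smox had 25.5 and 35.7 CPM (-0.48), Sat2 1.75 and 3.38 CPM (-0.94), Paox 5.9 and 4.28 CPM (0.46), Atp13a2 21.9 and 18.3 CPM (0.26) and Atp13a3 47.9 and 40.7 CPM (0.24). A fold of 1.5 served as a rule of size among genes with at least 30 UMIs. By it 1 of the 6 members, Sat2, was lower in DFMO and 0 were higher, while over all 14122 genes 10.1% were lower and 17.8% higher. These ratios mix the levels within cells with the different cells of the libraries. When the classes and clusters of each library were weighted alike, Sat1 stood at -0.11, Sat2 at -0.23, Smox at -0.04, Paox at 0.57, Atp13a2 at 0.27 and Atp13a3 at 0.15. Some of these weights fall on water classes of 57 cells or fewer. Over the 6 classes with at least 100 cells in each library, an alternative added after seeing the data, the values were -0.05, -0.27, -0.04, -0.10, 0.04 and 0.43 in the same order. Both equal weightings brought the values of Smox and Sat1 nearer to 0, and Paox changed sign between the weightings. Such a value averages over classes: for Sat1 it leans on the myeloid class, where the level is highest, and ratios within several other classes were about as far from 0 as that over all cells. Atp13a3 was the member whose ratio was largest over the 6 classes.

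**Figure D3:**
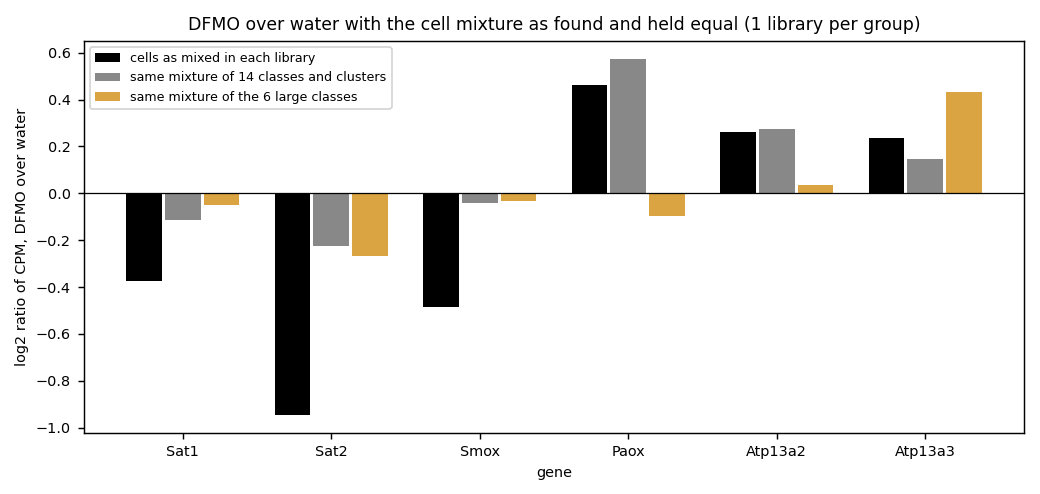
Log2 ratio of DFMO over water (vertical axis) for each gene over the cells as mixed in each library (black), with 14 classes and clusters weighted alike (grey) and with the 6 large classes weighted alike (yellow); bars are single values of 1 library per group, without error. Smox moves from -0.48 to -0.04, and Atp13a3 is highest, at 0.43, with the 6 large classes weighted alike.

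Within the 6 large classes, 27 of 36 pairs of a member and a class had at least 30 UMIs, of which 3 were higher and 2 lower in DFMO by the 1.5-fold rule. Over all genes, the share per class ranged from 5.01% to 15.1% higher and from 2.88% to 8.27% lower, so the members were called about as often as genes in general. For Sat1, no class passed that rule, but the direction differed between classes. It was lower in DFMO in fibroblast-like (-0.48; -0.63 to -0.33), NK cell-like (-0.41; -0.63 to -0.19), CD8 T cell-like (-0.38; -0.57 to -0.18) and Ptprc-low cells (-0.30; -0.38 to -0.22). Over the alternatives these values ran from -0.59 to -0.43, -0.47 to -0.32, -0.42 to -0.17 and -0.39 to -0.13, in the same order. The values nearest to 0 in CD8 T cell-like and Ptprc-low cells lay outside the counting intervals. In monocyte and macrophage-like cells Sat1 was slightly higher (0.13; 0.06 to 0.20), but this value fell to 0.03 with a coarser clustering and lay between that and 0.15 over all 9 alternatives. In regulatory T cell-like cells the interval included 0 (-0.15; -0.41 to 0.11). Inside the myeloid class, Sat1 was lower in DFMO in cluster 7 (-0.32; -0.50 to -0.15) and higher in cluster 10 (0.24; 0.11 to 0.36) and cluster 12 (0.16; 0.05 to 0.27). At the finer clustering, the cluster led by Ly6i kept -0.32 (-0.49 to -0.16), and that led by Hp had 0.10 (-0.03 to 0.22). The Arg1-led piece was higher in DFMO (2692 against 2133 CPM). The complement-led piece was nominally lower (989 against 1125 CPM), with overlapping intervals. These pieces held 33 and 31 cells in DFMO, and 171 and 215 in water.

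Macrophage RNA had a higher summed level in the other large classes in the water library. The genes Lyz2, C1qa, C1qb, Csf1r and Ms4a7 summed to 3.41 CPM (DFMO) and 41.0 CPM (water) in NK cell-like cells, 8.06 and 14.1 CPM in fibroblast-like cells, 4.63 and 9.17 CPM in Ptprc-low cells and 6.55 and 45.3 CPM in CD8 T cell-like cells, against 27234 and 25067 CPM in the myeloid class. In cells without a UMI of these 5 genes, the Sat1 log2 ratio was -0.32 in NK cell-like, -0.40 in CD8 T cell-like, -0.44 in fibroblast-like and -0.28 in Ptprc-low cells. Regulatory T cell-like cells had 14.3 and 62.0 CPM of the 5 genes, and a Sat1 ratio of -0.18 without cells that held them. This step left between 90.4% and 98.6% of the cells of these 5 classes, and does not remove Sat1 UMIs of other origin from them. The part of such RNA in the Sat1 differences was not tested.

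Sat2 could be compared in non-leukocytes only. Its ratio was 0.08 (-0.71 to 0.81) in fibroblast-like cells and -0.71 (-1.58 to 0.07) in Ptprc-low cells, which is past 1.5-fold but with an interval that includes 0. In Ptprc-low cells 2.88% of 11706 genes were lower and 5.01% higher by that rule.

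Smox did not pass the rule in any class, but 5 of 9 alternatives put it past 1.5-fold lower in regulatory T cell-like cells. Its log2 ratio was 0.02 in monocyte and macrophage-like cells (-0.19 to 0.22). With doublets kept or at least 500 genes per cell, the regulatory T cell-like value was -0.62, and it reached -1.34 with a coarser clustering. In the planned clustering the T and NK cell classes stood at -0.29 (regulatory; -0.85 to 0.25), -0.24 (CD8; -0.93 to 0.43) and -0.10 (NK; -0.76 to 0.54). The ratio was -0.28 in fibroblast-like cells (-0.81 to 0.22) and 0.21 in Ptprc-low cells (-0.07 to 0.49). In the myeloid class the interval is narrow enough to leave out a difference of 1.5-fold between these libraries. In that class 0 of 5 members with enough UMIs passed the rule, where 7.5% of 8864 genes were higher and 8.27% lower.

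Paox had enough UMIs in 2 of the 6 classes, with ratios of -0.07 (-0.73 to 0.54) in monocyte and macrophage-like and 0.06 (-0.67 to 0.78) in CD8 T cell-like cells. Both intervals include a difference of 1.5-fold in either direction. Within the myeloid class the clusters went both ways: Paox stood at 0.82 (-0.25 to 1.79) in cluster 7 and -1.26 (-3.62 to 0.43) in cluster 12, both past 1.5-fold with intervals that include 0, and at -0.22 (-1.28 to 0.71) in cluster 10. Over all genes, 10.5% of 6197 were higher and 13.1% lower by that rule in cluster 7. In cluster 12, 10.1% of 5908 genes were higher and 9.11% lower.

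Atp13a2 differed in direction between classes. It was higher in DFMO in CD8 T cell-like cells, with 13.6 CPM (27 UMIs) against 7.12 CPM (17 UMIs), a log2 ratio of 0.93 (0.01–1.90). There 1 of 5 members with enough UMIs was higher, and 7.53% of 8580 genes were higher and 4.52% lower. It was lower in fibroblast-like cells, with 14 CPM (33 UMIs) against 22.1 CPM (267 UMIs), a ratio of -0.66 (-1.23 to -0.13), which became -0.53 and no longer passed with at least 500 genes per cell. In Ptprc-low cells it stood at 0.47 (0.10–0.83), and in their cluster 1, led by the mitosis genes Anln, Troap and Cenpf, at 0.65 (0.17–1.11), where 6.05% of 11046 genes were higher and 2.81% lower. In the myeloid class it was -0.02 (-0.38 to 0.32).

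Atp13a3 was higher in DFMO in fibroblast-like cells, at 0.65 (0.37–0.93), and the lower end of that interval is below 1.5-fold. In fibroblast-like cells 1 of 5 members with enough UMIs was higher and 1, Atp13a2, lower, beside 6.02% and 6.46% of 10768 genes. Ptprc-low cells had 0.40 (0.26–0.54), with 0.44 (0.26–0.62) in cluster 1 and 0.42 (0.19–0.65) in cluster 3, led by Cdsn, Car9 and Ero1l, genes that include hypoxia markers. Cluster 13 of that class had -0.27 (-1.21 to 0.60). The 2 finer clusters of fibroblast-like cells stood at 0.57 (0.21–0.91) and 0.72 (0.19–1.22). The 4 finer clusters of Ptprc-low cells with at least 50 cells in each library ranged from 0.13 to 0.61. An Atp13a3 UMI was seen in 56.4% of fibroblast-like cells of DFMO and 32.5% of those of water, at medians of 15840 and 11726 UMIs per cell. Thinned to 1000 UMIs the shares were 7.74% (4.06–13.1) and 3.64% (2.57–4.98), and the intervals overlapped.

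In leukocytes the evidence on Atp13a3 was thinner. Regulatory T cell-like cells had 37.3 CPM (26 UMIs) in DFMO and 18.1 CPM (14 UMIs) in water, a log2 ratio of 1.04 (0.05–2.09). With every cell thinned to 1000 UMIs this ratio was -0.08, and with at least 500 genes per cell it was 0.25, so either step ends the call. In that class 1 of 4 members with enough UMIs was higher, beside 15.1% of 6033 genes (7.16% lower). Monocyte and macrophage-like cells had 0.51 (-0.07 to 1.05), NK cell-like cells 0.35 (-0.40 to 1.08) and CD8 T cell-like cells -0.17 (-0.70 to 0.34). Inside the myeloid class, Atp13a3 was past 1.5-fold higher in DFMO in clusters 7 and 10, but not in cluster 12. Over all genes, 10.5% were higher by that rule in cluster 7 and 10.9% in cluster 10. At the finer clustering, the cluster led by Ly6i had 0.99 (0.13–1.80), from 18 and 49 UMIs, and that led by Hp had -0.16 (-1.38 to 0.90). In NK cell-like cells 0 of 3 members with enough UMIs passed the rule, beside 7.6% of 7701 genes higher and 5.9% lower.

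**Figure D4:**
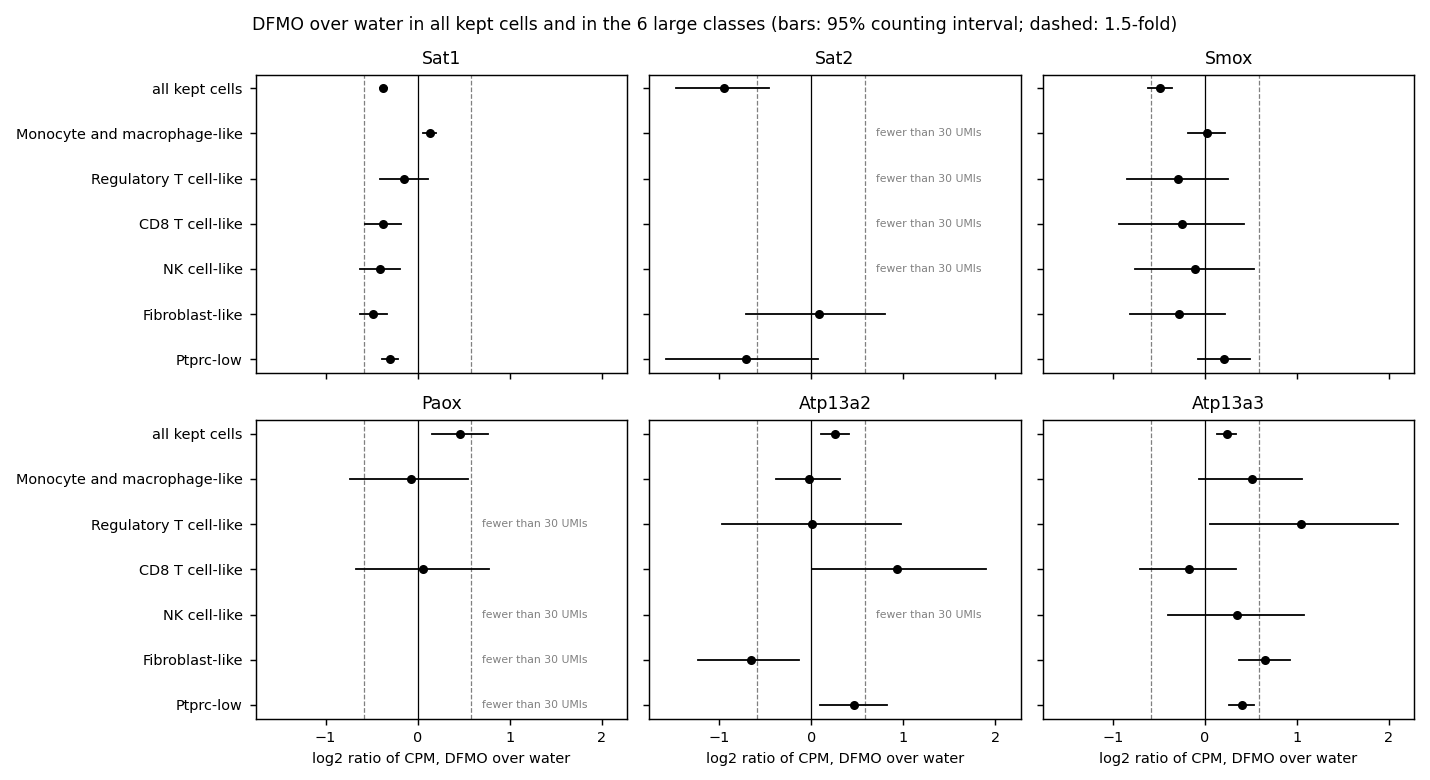
Log2 ratio of DFMO over water (horizontal axis) for each gene in all kept cells and in the 6 large classes; points are single values of 1 library per group, bars are 95% counting intervals and dashed lines mark 1.5-fold. Sat1 lies left of 0 in fibroblast-like, NK, CD8 T cell-like and Ptprc-low cells and right of 0 in monocyte and macrophage-like cells, and Atp13a3 lies right of 0 in fibroblast-like and Ptprc-low cells.

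Cells with UMIs of 2 members were counted after thinning to 1000 UMIs, as a description. In monocyte and macrophage-like cells of water, 110 of 1198 cells had both Sat1 and Smox, where the product of the single shares gives 117.2 cells. In DFMO it was 24 of 181 cells, with a product of 20.03. Sat1 and Atp13a2 were seen together in 61 water cells, with a product of 64.46, and Smox and Atp13a2 in 14, with a product of 14.87. Sat1 and Paox were together in 12 water cells, with a product of 16.93, and Paox and Atp13a2 in 1, with a product of 2.15. For the first 3 of these pairs, the cells with both were about as many as the single shares give, and the counts of Paox are small. Over all kept cells of water, Sat1 and Smox were together in 144 cells against a product of 82.17, and in DFMO in 36 against 19.66. These counts join classes that differ in the levels of both genes. Of the cells with both, 110 and 24 were the monocyte and macrophage-like cells above, with products of 117.2 and 20.03.

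Of 37 other genes of polyamine metabolism and transport, 31 were in the matrix and 26 had at least 30 UMIs over all kept cells. By the 1.5-fold rule, 2 were higher in DFMO and 0 lower, and the median log2 ratio was 0.00, beside 0.05 over all 14122 genes. The 2 were Sms, the spermine synthase gene (90.6 CPM in DFMO and 54.5 CPM in water; 0.73; 0.65 to 0.81), and Hdac10, a deacetylase that acts on acetylspermidine (14.6 and 8.86 CPM; 0.72; 0.52 to 0.92). Within some classes these were nearer to 0: Sms stood at 0.25 in Ptprc-low, 0.43 in fibroblast-like, 0.38 in CD8 T cell-like and 0.08 in NK cell-like cells. In monocyte and macrophage-like cells Sms stood at 0.69 (0.19–1.17), close to its value over all cells and still past 1.5-fold. Hdac10 stood at 0.04 (-0.35 to 0.41) in Ptprc-low and 0.28 (-0.27 to 0.79) in fibroblast-like cells. Odc1, the target of DFMO, had 162 and 157 CPM over all cells, a ratio of 0.05 (-0.01 to 0.10). In regulatory T cell-like cells, where Odc1 was 692 CPM in DFMO and 1149 CPM in water, the ratio was -0.73 (-0.89 to -0.57). In monocyte and macrophage-like cells it was 0.53 (0.11–0.93), with 59.9 and 41.5 CPM. The list's counts in the 6 large classes were 1 higher and 2 lower of 15 in regulatory T cell-like cells, 1 and 0 of 17 in CD8 T cell-like cells, 1 and 0 of 19 in NK cell-like cells, 3 and 0 of 20 in monocyte and macrophage-like cells, 1 and 0 of 23 in fibroblast-like cells and 1 and 1 of 25 in Ptprc-low cells. Their medians were 0.08, 0.08, 0.06, 0.18, 0.04 and 0.04, beside 0.09, 0.04, 0.04, 0.03, 0.01 and 0.05 over all genes.

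The genes most like each member across cells were found by Pearson correlation of log2(CPM + 1) over 22 sums of 13 classes or clusters, among 10806 genes. The sums share 2 libraries and their depths, and the values are descriptions. For Sat1 they were Atp6v0c, a subunit of the vacuolar proton pump (0.92), Slfn4 (0.90) and Il1rn, a receptor antagonist of interleukin signalling (0.90). For Smox they were Tmem38b (0.87), Gsr, glutathione reductase (0.84), and Ggh, gamma-glutamyl hydrolase (0.83). For Sat2 they were Casp12 (0.93), Steap3, a metalloreductase (0.93), and Abhd3 (0.92), all highest in fibroblast-like cells. For Paox they were Arrb1, a beta-arrestin (0.93), Arpc2, a subunit of an actin nucleating complex (0.89), and Ccdc88b (0.89). For Atp13a2, Wdfy2 (0.87) was the most alike. For Atp13a3 they were Ltv1, Atic and Abl2 (0.89 each). Among the members themselves, Sat1 and Smox had 0.43 and Sat1 and Atp13a2 0.54.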

How the data were processed

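Single-cell 5′ RNA was sequenced in 2 libraries, DFMO and water. The authors deposited raw UMI counts per gene and cell; Cell Ranger 3.02, Scanpy 1.4.4 and mm10 are named in the submitters' processing notes. The authors' deposited table of cells gives each cell's library and 2 further values, total counts and genes per cell. Every cell has a library there. Total UMIs deposited were 23588037 (DFMO) and 59748244 (water).

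Cells with at least 200 genes were kept (1 water cell removed), and 51 DFMO and 97 water doublets called by Scrublet were removed. Only 26.7% and 35.0% of simulated doublets passed the thresholds, so doublets may remain. Cells were clustered with scanpy 1.11.5 and leidenalg 0.10.2 (2000 variable genes, 30 components, 15 neighbours, resolution 1). Markers were counted when detected in 0.1 or more of the cells of a cluster, at 2 times the level elsewhere or above, and a name needed at least 3 markers and 0.5 of its list. This naming rule was set after the clusters were seen.

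Sums of UMIs were taken for each class within a library. CPM had exact Poisson intervals, ratios exact conditional binomial intervals and shares exact Clopper-Pearson intervals, all 95%. The calculation of the ratio intervals was checked on simulated Poisson counts. Such counts follow the model that the intervals assume, so this check does not cover the spread between cells, mice or libraries. A fold of 1.5 was applied to genes with at least 30 UMIs. The members are named always, with the 3 genes most alike (at least 300 UMIs), other polyamine genes past the fold and Odc1; for Atp13a2 only the most alike gene is reported here. Members and lists were chosen with earlier results of these data known. TMM scaling used edgeR 4.0.16. GENCODE M21 matched 17760 of 17775 genes. Protein sequences were not used here.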

Additional observations from a re-analysis of the deposited data

Results flagged for a closer look

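In 8 comparisons of a pair of classes, or of a pair of clusters within a class, the log2 ratios of DFMO over water had intervals on opposite sides of 0. With 1 library per group these differences were not tested. The Sat1 ratio in monocyte and macrophage-like cells, 0.13, exceeded that in fibroblast-like cells by 0.61, that in NK cell-like cells by 0.53, that in CD8 T cell-like cells by 0.51 and that in Ptprc-low cells by 0.43. Its own value falls to 0.03 with a coarser clustering. Within the myeloid class, the Sat1 ratio in cluster 7, -0.32, was exceeded by that in cluster 10 by 0.56 and by that in cluster 12 by 0.49. At the finer clustering, the cluster led by Hp had an interval that includes 0 (0.10; -0.03 to 0.22). There the Arg1-led piece was higher in DFMO, and the complement-led piece was not. The Atp13a2 ratio in fibroblast-like cells, -0.66, was exceeded by that in CD8 T cell-like cells by 1.59 and by that in Ptprc-low cells by 1.13. The value in CD8 T cell-like cells rests on 27 and 17 UMIs.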

How the results depend on the processing

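No paired analysis was possible because there was a single library in each group. Of 305 values recomputed under the alternatives, 268 stayed within the counting interval of the reported value, and 32, in 15 of 33 ratios, had the opposite sign. Some alternatives hardly changed the sums, so these counts do not measure robustness. Totals without receptor segments gave -0.366 for Sat1 over all kept cells, and the coarser clustering left the NK cell-like Sat1 ratio unchanged. Over all kept cells, the Sat1 log2 ratio of -0.37 was -0.42 with TMM library sizes, -0.67 with cells thinned to 1000 UMIs, -0.70 as a mean over cells, and -0.11, -0.15 and -0.051 with classes, clusters or the 6 large classes held equal. In the order thinned, mean over cells, classes, clusters and large classes, Sat2 was -1.84, -2.41, -0.23, -0.21 and -0.27, and Smox was -1.48, -1.31, -0.040, 0.0036 and -0.035. With the large classes held equal, Paox was -0.10, Atp13a2 0.035 and Atp13a3 0.43; Atp13a3 was -0.035 thinned and 0.024 as a mean over cells. Equal mixtures of clusters and of large classes were added after seeing the data. Within classes, 235 of 251 values stayed within that interval and 29 had the opposite sign, 9 of them under thinning. Of ratios past 1.5-fold, Atp13a3 in regulatory T cell-like cells (-0.078) and Sat2 in Ptprc-low cells (1.83) turned, both under thinning. Smox in regulatory T cell-like cells ranged from -1.34 to -0.22, and Atp13a3 from -0.23 to 0.80 in the myeloid class and from -0.98 to 0.40 in NK cell-like cells. Thinned sums hold few UMIs of the low members, and 1 pair of a member and a class was then higher by 1.5-fold, in place of 3 (2 with at least 500 genes per cell). The causes were not tested. Depth limits Sat2 and Paox most, with 41 and 138 UMIs in DFMO.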

Other observations

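Several finer clusters, added after seeing the data, stood out for single members. A Ptprc-low cluster led by Igfbp7, Fam167b and Egfl7, the last an endothelial gene, had 513 CPM of Sat1 (437–599) in 40 DFMO cells and 585 CPM (531–644) in 147 water cells. That is above the 161 and 198 CPM of all Ptprc-low cells, and below the mixed cluster led by Klk1 and Siglech, with 1676 and 1449 CPM. A cluster led by Jchain, Mef2b and Rgs13 had 71.3 CPM of Atp13a2 (45.7–106) in 42 DFMO cells, and only 6 water cells. In a Ptprc-low cluster led by Cdsn, Stbd1 and Cxadr, Smox was 37.3 CPM (24.1–55) in 43 DFMO cells and 14.3 CPM (10.5–19) in 199 water cells.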
